A study of Mus musculus with 4 samples.

Results

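Integrins and focal adhesion genes, which hold cells to the extracellular matrix, were examined in basal and luminal cells of the growing mouse prostate. The group was set by a written list of gene symbols with no threshold on measured values, although the list was written with earlier results of these data known. It holds 38 of the 49671 genes in the table, namely 16 integrin subunits, 18 adapters and linkers, the matrix receptor dystroglycan and 3 ligands. The subunits α6 and β4 were left out of the list. CD49f, the antigen that separated the cell types in the sort, is α6. All 38 genes were found in the table and all 38 passed the filter on low values, although Itga4 and Lims2 passed through the basal libraries alone.

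An integrin is a pair of an α and a β subunit in the cell membrane. The pair decides the ligand. Pairs with α1, α2, α10 or α11 bind collagen, pairs with α3 or α7 bind laminin, and α5, α8 and αV recognise the Arg-Gly-Asp motif of proteins such as fibronectin. Inside the cell, talin and kindlin switch integrins on, integrin-linked kinase (ILK) with PINCH and parvin couples them to actin, and paxillin, focal adhesion kinase and SRC pass the signal on. In the prostate, basal cells sit on the basement membrane and luminal cells face the lumen, and fibroblasts and smooth muscle of the stroma use many of the same genes.

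RNA-seq was performed on multipotent basal cells and on the luminal cells derived from them, taken from duct tips of the ventral lobe of untreated CD-1 mice, which the labels place at postnatal days 10 to 13. Lobes of several mice were pooled, digested with collagenase and sorted for live cells negative for CD45, CD31 and CD140a and high for EpCAM, with CD49f high for basal cells and low for luminal cells. There were 2 libraries per cell type, basal replicates 1 and 3 and luminal replicates 3 and 2, and in this order values are listed throughout. Values are gene counts scaled by the authors to the same number of aligned reads in each library, called normalised counts here. Nothing says whether the replicates were separate pools, so p-values measure the spread between these samples, which may be technical.

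The depth differed between the cell types. The spacing of low values gave 3194308 and 3079272 reads on genes in the basal libraries and 1036685 and 643267 in the luminal libraries, so that 1 read is worth 6.26, 6.50, 19.4 and 31.2 normalised counts. Nuclear protein-coding genes held 74.7% to 76.0% of basal and 57.3% to 64.2% of luminal counts. The 5 basal keratin and p63 markers summed to 60660 and 50070 in basal and 2633 and 1837 in luminal libraries, and 7 luminal markers to 23885 and 24742 against 53711 and 36897, so both labels held. Markers of the stroma were present in all 4 libraries, with 10 fibroblast genes summing to 113236, 228513, 96211 and 230729 and 9 smooth muscle genes to 37337, 64101, 11107 and 72888. Endothelial markers summed to 697 to 1807 and immune markers to 852 to 3513. Most of the immune sum was Cd3e, at 2173, 1462, 639 and 1807, while Ptprc, which encodes CD45, was at 150, 6, 0 and 0. None of the fibroblast and smooth muscle genes was at 0 in any library, and Pdgfra, which encodes the CD140a used to remove such cells, was at 3307, 4144, 2575 and 8383. The sums were 2.40-fold (fibroblast) and 6.56-fold (smooth muscle) higher in luminal replicate 2 than in luminal replicate 3.

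Most adhesion genes had lower values in luminal cells, and the laminin receptor subunit Itga3 was the gene that passed the test. Across the 38 genes the median log2 fold change, luminal minus basal, was -0.84, beside -0.10 over the 18737 genes tested, and 32 of the 38 were below 0, as were 10133 of all genes tested. Itga4 and Lims2, which passed the filter through the basal libraries alone, are among the 32 and enter the median. The median of the 38 was -0.41 without luminal replicate 3 and -1.28 without luminal replicate 2. By limma with Benjamini-Hochberg adjustment 1 gene, Itga3, was higher in basal cells, where 0.438% of all genes tested were, and 37 did not pass (0.694% of all genes passed in either direction). Luminal cells had 0 higher by limma, where 0.256% of all genes tested were, 1 at an unadjusted p under 0.05 (7.82% of all genes), 1 by edgeR and 0 by DESeq2 (2.15%). In the basal direction 12 had an unadjusted p under 0.05, where 10.7% of all genes tested did. edgeR on recovered reads called 5 genes higher in basal cells (Itga3, Itgb8, Src, Dag1 and Tnc) and 1 higher in luminal cells (Tln2), against 2.72% and 2.36% of all genes. DESeq2 called 4 in the basal direction (Itga3, Itgb8, Dag1 and Tnc), against 2.22% of all genes.

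By the fold rule of the study's methods, a ratio of group averages of at least 2, 14 of the 38 genes were higher in basal cells, where 16.3% of all genes were. These include Itga4 and Lims2, which passed the filter through the basal libraries alone, and with both groups required to pass the count was 12. Without luminal replicate 2 it was 26. In the luminal direction 2 were, Itga11 and Tln2, where 18.3% of all genes were. Both basal libraries were above both luminal libraries for 21 genes, Itga4 and Lims2 included, against 27.3% of all genes tested, both luminal libraries were above for Tln2 and Ptk2, against 23.6%, and the groups overlapped for 15. Rescaling to nuclear protein-coding genes moved the median of all genes by over 0.1, from -0.10 to 0.21, and that of the 38 genes to -0.53, so the 38 stayed below all genes. In bulk RNA, fewer cells of a type and less RNA per cell cannot be told apart.

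**Figure D1:**
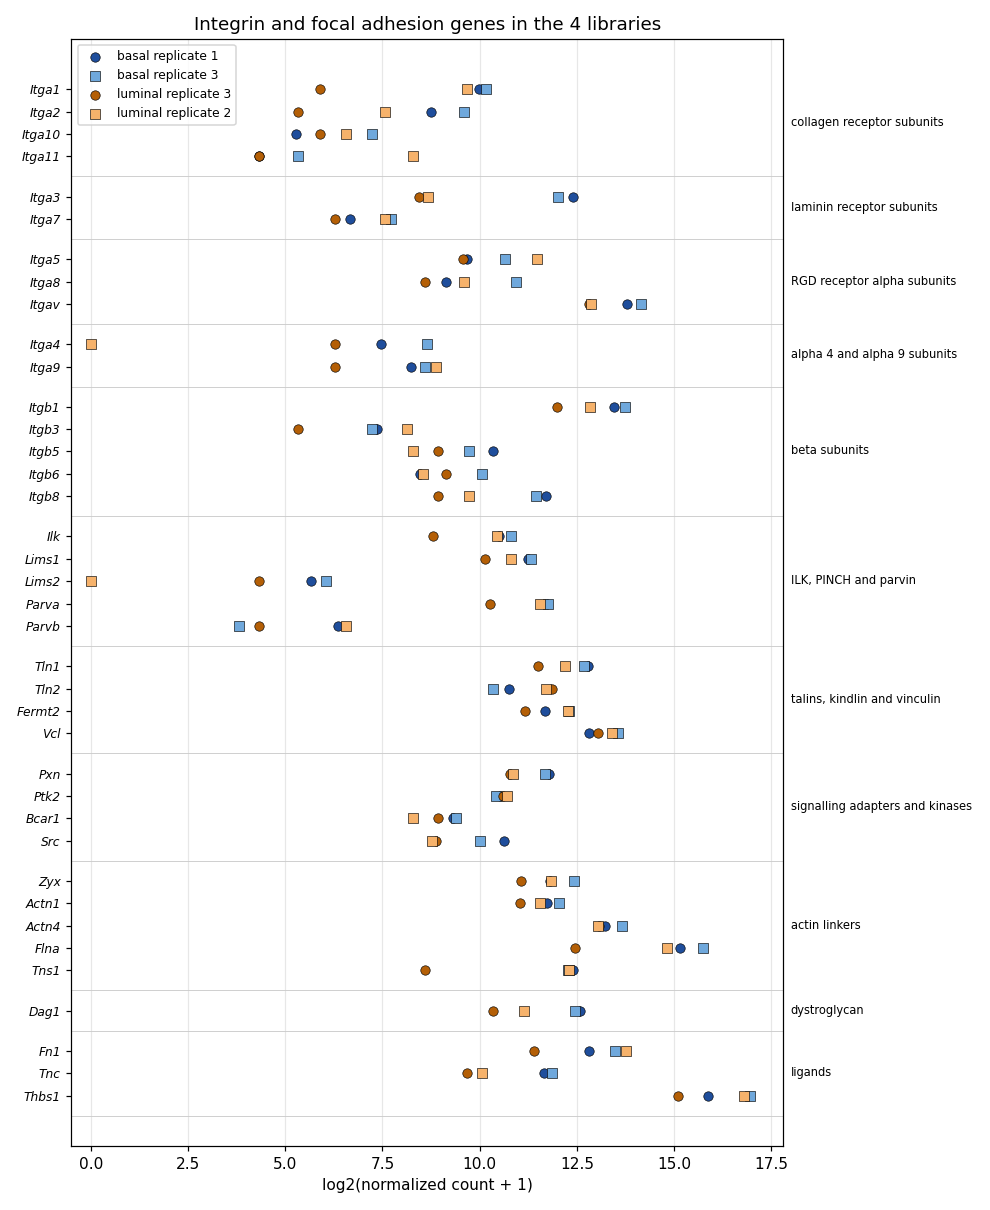
Normalised counts of the 38 adhesion genes in the 4 libraries, as log2 of the value plus 1, 1 row per gene grouped by role and 1 marker per library. Itga3 is at 5405 and 4164 in the basal and 349 and 405 in the luminal libraries, while Thbs1 has the highest values and overlaps.

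The difference that passed the test was in a laminin receptor. Itga3 encodes α3, which pairs with β1 and binds laminin-332 and laminin-511 of the basement membrane. The gene lies on the minus strand at chr11:95044474-95076801 (GRCm38). It was at 5405, 4164, 349 and 405 normalised counts, from 863, 641, 18 and 13 reads. Both luminal libraries were far below both basal libraries, by 12.7-fold between the averages (4784 ± 878 against 377 ± 39.6, SD, n = 2 each). The log2 fold change was -3.65 (SE 0.27, limma adjusted p = 0.025), and leaving out any 1 library, which leaves 1 group with a single library, ended the call with limma adjusted p between 0.0747 and 0.0972, while the log2 fold change stayed between -3.84 and -3.47. Itga7, whose product α7 is the laminin receptor of muscle, was at 100, 208, 77 and 187, and its groups overlapped.

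Because Itga3 carries the main difference, and Itgb1, Dag1 and Tnc are its partner and the other receptor and ligand described here, their promoters are shown. The bases just before the gene start come from RefSeq (GRCm38.p6), 5′ to 3′ on the gene's strand, with matches to the SP1 letters GGGCGG and the TEAD letters GGAATG in capitals. The windows are chr11:95076802-95076964 (minus strand) for Itga3, chr8:128685404-128685653 (plus) for Itgb1, chr9:108263959-108264208 (minus) for Dag1 and chr4:64047016-64047265 (minus) for Tnc. The stretch shown for Itga3 is shorter because it ends where the GENCODE gene begins.
Itga3: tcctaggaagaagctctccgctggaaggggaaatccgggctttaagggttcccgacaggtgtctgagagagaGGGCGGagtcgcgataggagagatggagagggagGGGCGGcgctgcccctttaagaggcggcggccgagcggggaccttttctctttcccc
Itgb1: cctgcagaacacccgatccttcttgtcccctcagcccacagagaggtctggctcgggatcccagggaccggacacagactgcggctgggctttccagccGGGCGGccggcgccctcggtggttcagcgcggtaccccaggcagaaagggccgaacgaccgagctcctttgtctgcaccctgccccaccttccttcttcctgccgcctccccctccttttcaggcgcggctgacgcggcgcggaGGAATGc
Dag1: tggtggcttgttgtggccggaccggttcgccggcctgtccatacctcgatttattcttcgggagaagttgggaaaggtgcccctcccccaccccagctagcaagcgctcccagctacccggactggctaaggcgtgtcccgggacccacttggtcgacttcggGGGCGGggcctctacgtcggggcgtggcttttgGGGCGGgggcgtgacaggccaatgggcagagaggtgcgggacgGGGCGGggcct
Tnc: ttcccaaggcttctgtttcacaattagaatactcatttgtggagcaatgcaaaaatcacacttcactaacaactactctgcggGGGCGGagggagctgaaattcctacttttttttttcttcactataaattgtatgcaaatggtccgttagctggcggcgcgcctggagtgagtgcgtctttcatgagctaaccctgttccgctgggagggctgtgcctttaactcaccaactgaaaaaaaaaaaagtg
Of the 38 genes 29 had a promoter in the RefSeq table. On either strand of the 250 bases before the RefSeq start of each, GGGCGG stood in 18 of the 29 (33.0% of 27025 promoters), GGAATG in 5 (12.6%), the AP-1 letters TGANTCA in 2 (6.84%) and the CArG box of SRF in 2, Fermt2 and Vcl (1.40%). These matches describe the letters and not binding.

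Of the 4 collagen receptor subunits none passed limma, with 1 at an unadjusted p under 0.05 in the basal direction, where 10.7% of all genes tested were. Itga2 (α2β1, the collagen receptor of many epithelia) was at 426, 773, 39 and 187, a log2 fold change of -2.73 (SE 0.86, limma adjusted p = 0.184). Itga1, whose product binds collagen IV, was at 1008, 1143, 58 and 810. The luminal libraries lay below the basal ones for both genes, and for Itga1 luminal replicate 2 was 14.0-fold above luminal replicate 3 and close to basal cells. Itga10 was at 38, 149, 58 and 93, from 29 basal and 6 luminal reads. Its values are uncertain, since exons of Gm42957 on the same strand cover 33.5% of its exons. Itga11, a fibroblast collagen receptor, was at 19, 39, 19 and 312, so its fold rests on luminal replicate 2 and without it the log2 fold change was -0.50.

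Among the subunits that recognise Arg-Gly-Asp, αV was the most abundant. Itgav was at 14060, 18065, 7203 and 7386, with both luminal libraries below both basal ones and close to each other (log2 fold change -1.13, SE 0.24, limma adjusted p = 0.0705). Itga5, the fibronectin receptor, was at 814, 1598, 755 and 2867, and Itga8, the nephronectin receptor, at 564, 1942, 387 and 779. Their groups overlapped, and both were at least 2-fold higher in luminal replicate 2 than in luminal replicate 3.
Of the subunits α4 and α9, which bind VCAM1 and tenascin-C among others, neither passed. Itga4 was at 175, 396, 77 and 0, or 89 basal against 4 luminal reads, a ratio of 0.168 in reads (95% interval 0.0448 to 0.445, counting error only). Because Itga4 passed the filter through the basal libraries alone, no difference is read from this interval. Itga9 was at 301, 383, 77 and 467.

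The β subunits were led by Itgb1, the partner of most α subunits. Itgb1 was at 11317, 13706, 4047 and 7292, with no overlap between the groups (log2 fold change -1.20, SE 0.34, limma adjusted p = 0.144). Itgb8, which with αV releases active TGF-β from its latent complex, was at 3369, 2806, 484 and 841. Both luminal libraries were far below, by 4.66-fold between averages (log2 fold change -2.27, SE 0.34, limma adjusted p = 0.0637, edgeR adjusted p = 0.00298). Itgb5 (vitronectin receptor αVβ5) was at 1309, 844, 484 and 312, again without overlap. Itgb6, the epithelial partner of αV, was at 351, 1072, 562 and 374, and Itgb3 at 163, 149, 39 and 280. For these last 2 genes the groups overlapped.

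Levels per kilobase of exon allow subunits to be compared. Of the 5 β subunits listed, Itgb1 held 81.1% ± 3.33 of the summed basal level and 83.0% ± 5.84 of the luminal level (SD, n = 2). Itgb8 held 8.65% and 6.30% in the basal libraries and 3.48% and 3.71% in the luminal libraries, which did not overlap. Of the 11 α subunits Itgav held 48.7%, 50.8%, 68.0% and 41.0%, Itga3 35.2%, 22.0%, 6.20% and 4.23%, and Itga5 6.14%, 9.79%, 15.5% and 34.6%. Itga3 stood second in both basal libraries, and Itga5 stood second in both luminal libraries. The shares were not tested (the smallest p of an exact permutation test with 2 libraries against 2 is 0.333), and they leave out Itga6 and Itgb4.

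**Figure D2:**
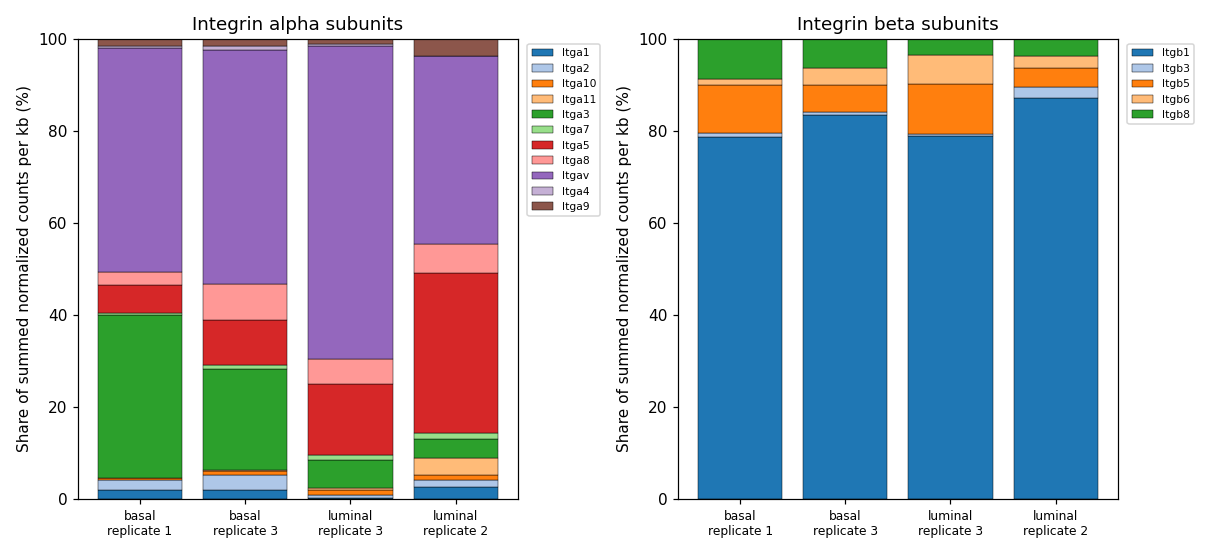
Share of each integrin subunit in the summed normalised counts per kb (percent), 1 stacked bar per library, for β and α subunits separately, without Itga6 and Itgb4. Itgb1 holds most of the β level in all 4 libraries, and the α3 share is 22.0% to 35.2% in basal and 4.23% to 6.20% in luminal libraries.

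The 18 adapters and linkers had a median log2 fold change of -0.78, beside -1.03 for the 16 integrin subunits, and that difference was not tested. Among ILK, the PINCH genes and the parvins none passed limma, and the median log2 fold change was -0.84, which was -0.19 without luminal replicate 3 and -1.49 without luminal replicate 2. Ilk was at 1434, 1786, 445 and 1402, Lims1 (PINCH1) at 2424, 2533, 1123 and 1776, and Parva at 3401, 3462, 1220 and 3023. The luminal libraries were below the basal ones for each, but luminal replicate 2 was near them. The exons of Taf10 on the other strand cover 76.8% of the Ilk exons, and whether strand was used in counting is not given in the sources used here, so the Ilk values are uncertain. Lims2 (18 basal reads against 1 luminal read, a ratio of 0.207, 95% interval 0.00498 to 1.31) and Parvb (15 against 4) were too low to compare.

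Talin 2 was the member with the clearest excess in luminal cells. Tln2 was at 1728, 1286, 3737 and 3366, with both luminal libraries above both basal libraries by 2.36-fold between averages. The log2 fold change was 1.25 (SE 0.25), with adjusted p = 0.0705 by limma, 0.0309 by edgeR and 0.0514 by DESeq2. Tln1, the talin most cells use, was at 7083, 6600, 2904 and 4674, all luminal values lower (log2 fold change -0.89, limma adjusted p = 0.196). The difference between the 2 talins was not tested. Fermt2 (kindlin-2) was at 3300, 5002, 2304 and 4986 and Vcl (vinculin) at 7183, 11959, 8481 and 10876, and the groups overlapped for both. Exons of Ap3m1 on the other strand cover 25.5% of the Vcl exons.

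Of the 4 signalling adapters and kinases, 3 had both luminal libraries below both basal libraries, as 27.3% of all genes tested did. Src, which phosphorylates proteins at adhesions, was at 1572, 1020, 465 and 436, with a log2 fold change of -1.49 (SE 0.33, limma adjusted p = 0.0833, edgeR adjusted p = 0.0467). Pxn (paxillin) was at 3538, 3306, 1762 and 1870 (log2 fold change -0.91, limma adjusted p = 0.0892). Bcar1 (p130CAS) was at 639, 676, 484 and 312. Ptk2, focal adhesion kinase, was at 1472, 1358, 1549 and 1652, and its log2 fold change of 0.18 (SE 0.23, limma adjusted p = 0.699) was smaller than its error.

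Of the 5 actin linkers, Flna and Tns1 differed widely between the luminal libraries. Flna (filamin A, an actin cross-linker) was at 36261, 55136, 5557 and 29012, and Tns1 (tensin 1) at 5361, 4963, 387 and 5017. For Tns1 luminal replicate 2 lay at the basal level, 13.0-fold above luminal replicate 3. Zyx (zyxin) was at 3582, 5489, 2130 and 3646, Actn1 (α-actinin-1) at 3407, 4190, 2091 and 2992, and Actn4 at 9500, 13043, 8577 and 8383. None of the 5 passed limma.

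Dag1 encodes dystroglycan, a laminin receptor that is no integrin. It was at 6106, 5593, 1297 and 2275, lower in both luminal libraries by 3.28-fold between averages (log2 fold change -1.77, SE 0.32, limma adjusted p = 0.0688, edgeR adjusted p = 0.00876). Of the ligands, Tnc (tenascin-C, a matrix protein of growing tissue) was at 3225, 3703, 813 and 1060. Its averages differed by 3.70-fold (log2 fold change -1.90, SE 0.26, limma adjusted p = 0.0582, edgeR adjusted p = 0.00483). Fn1 (fibronectin) was at 7208, 11439, 2691 and 13805, and Thbs1 (thrombospondin-1) at 60535, 127771, 35162 and 114990. For Fn1 and Thbs1 the groups overlapped, and each luminal replicate 2 was at least 3.27-fold above luminal replicate 3.

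The spread between the luminal libraries ran through much of the group. The luminal libraries also differed beyond it. Over nuclear protein-coding genes the Pearson correlation of log2 values was 0.898 for the luminal pair and 0.948 for the basal pair. Between basal and luminal libraries it was 0.897 to 0.905. Luminal replicate 2 was above luminal replicate 3 for 30 of the 38 genes (78.9%), against 52.7% of all genes tested, and at least 2-fold above for 16 (42.1%, against 22.0%). The reverse, luminal replicate 3 at least 2-fold above, held for 2 genes (5.26%, against 16.8%), Itga4 with 4 reads against 0 and Lims2 with 1 read against 0. Luminal replicate 3 was below both basal libraries for 31 genes (81.6%, against 42.6% of all) and luminal replicate 2 for 21 (55.3%, against 40.7%). Among the 16 were Itga1, Itga5, Itga9, Flna, Tns1, Fn1 and Thbs1. The fibroblast and smooth muscle sums were also lower in luminal replicate 3 by 2.40-fold and 6.56-fold, and their part in these values was not tested. Itga3, Itgav, Itgb8, Tln2, Pxn, Src, Dag1 and Tnc differed by less than 2-fold between the luminal libraries. So did Itga10, Itgb1, Itgb5, Itgb6, Lims1, Tln1, Vcl, Ptk2, Bcar1, Zyx, Actn1 and Actn4.

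**Figure D3:**
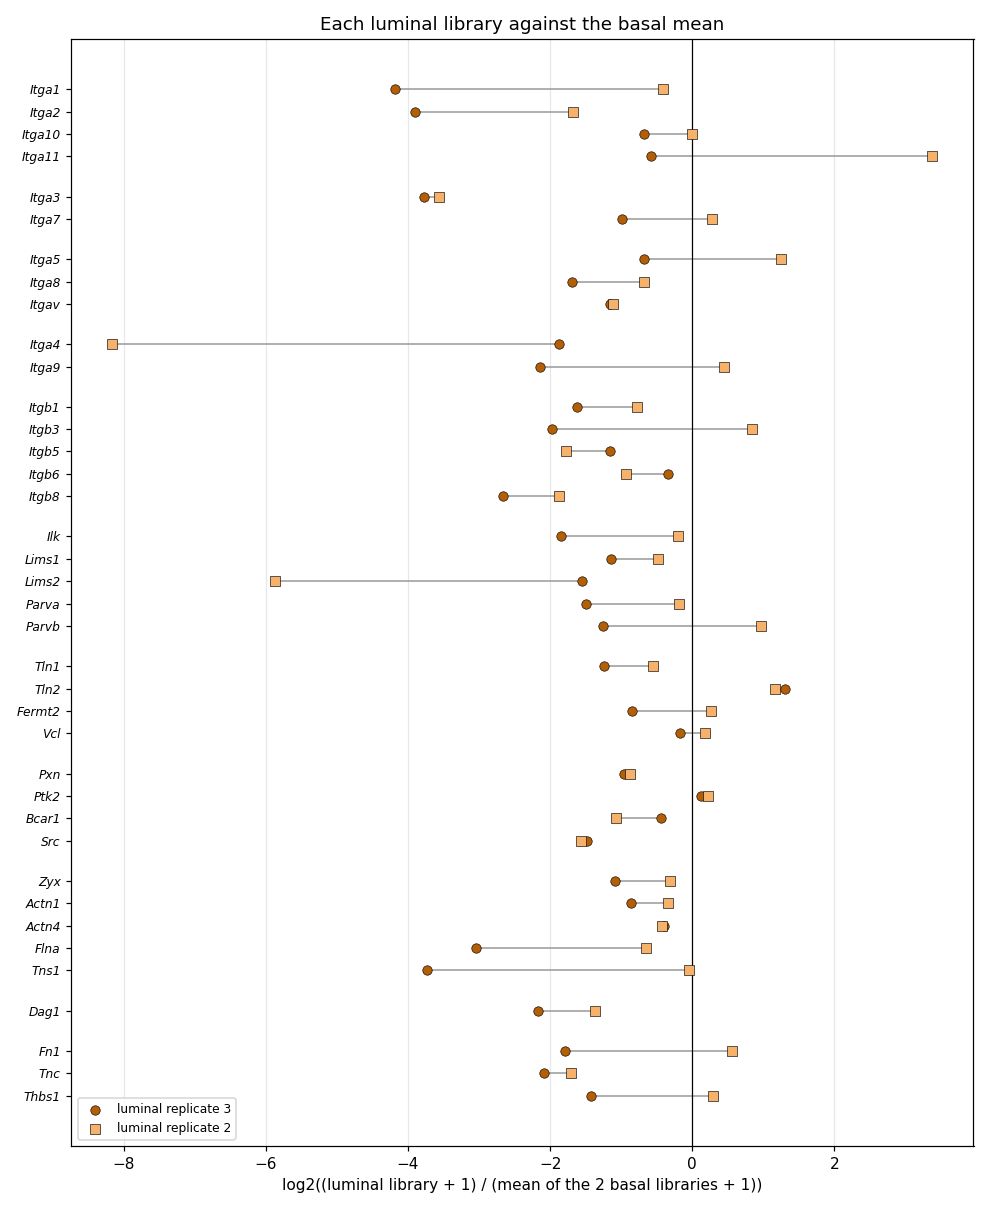
Log2 ratio of each luminal library to the basal mean, 1 row per gene, with a line joining the 2 luminal libraries. Itga3 is at -3.77 and -3.56, and for Tns1 and Itga1 the 2 libraries lie far apart.

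**Figure D4:**
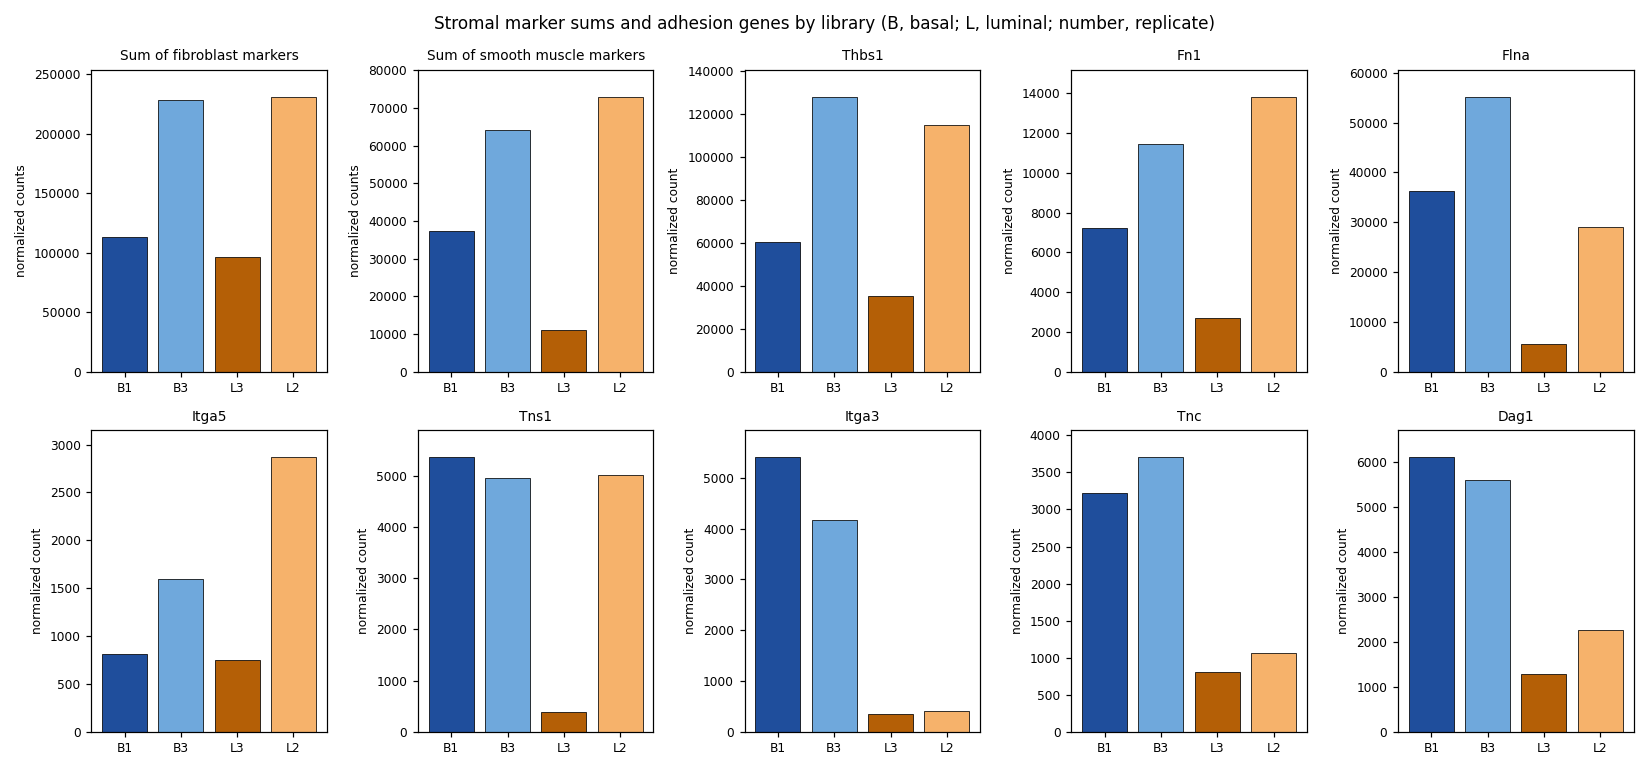
Summed normalised counts of fibroblast and smooth muscle markers, and normalised counts of adhesion genes, 1 bar per library (B basal, L luminal, number the replicate). The smooth muscle sum is 11107 in luminal replicate 3 and 72888 in luminal replicate 2.

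Related genes that are not in the list were read in 7 written lists of 142 genes, of which 127 were kept. By limma 1 was higher in basal cells, Itga6, where 0.438% of all genes tested were, and 1 in luminal cells, Sorbs2, where 0.256% were. The other 125 did not pass. edgeR called 23 in the basal and 4 in the luminal direction, against 2.72% and 2.36% of all genes, and DESeq2 20 and 4, against 2.22% and 2.15%. Itga6 was at 20222, 16382, 4337 and 3584 (log2 fold change -2.21, SE 0.24, limma adjusted p = 0.041), which the CD49f sort selected for. Its hemidesmosome partner Itgb4 was at 8079, 7126, 2362 and 1402 (log2 fold change -2.06, limma adjusted p = 0.0637). Sorbs2, an adapter of actin fibres, was at 752, 844, 4415 and 4986 (log2 fold change 2.56, SE 0.23, limma adjusted p = 0.0354). By the fold rule 46 of the 127 were higher in basal and 11 in luminal cells, where 16.3% and 18.3% of all genes tested were.

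Of the 127 related genes, 60 had both basal libraries above both luminal libraries (27.3% of all genes tested did), 15 had the reverse (23.6%) and 52 overlapped. The genes named next did not overlap and did not pass limma, and some passed edgeR, such as Tns3 (edgeR adjusted p = 0.00144), Cav2 (0.00301) and Utrn (0.00382). Tns3 was at 13790, 5677, 1026 and 1433, and Tns4 at 2918, 779, 0 and 31. Ppfibp1, a liprin, was at 6958, 4748, 1162 and 1496, and Cav2 (caveolin-2) at 3244, 2618, 716 and 467. Pak3, a kinase, was at 620, 409, 39 and 31, and Ajuba at 2073, 669, 116 and 31. Of genes tied to actin fibres, Palld (palladin) was at 8248, 11510, 2188 and 4550, Nexn at 1065, 1520, 213 and 686 and Kank4 at 1847, 1319, 310 and 717.
Among membrane partners, Sdc1 and Sdc4 (syndecans) were at 3996, 3157, 1394 and 1247 and at 4002, 5443, 1336 and 1745, and Cd151, a tetraspanin that binds laminin receptors, at 1566, 1306, 600 and 561. Utrn (utrophin, which joins dystroglycan to actin) was at 8849, 8087, 1685 and 2773 and Sspn (sarcospan) at 651, 396, 155 and 218. Ligands included Vcam1 at 1077, 513, 97 and 93, Ltbp1, which holds latent TGF-β, at 5448, 4333, 329 and 1465, and Edil3 at 858, 468, 0 and 31. In the other direction Lgals3 (galectin-3) was at 125, 195, 1723 and 686, Elmo1 at 420, 286, 1259 and 966, Ptk2b at 175, 32, 562 and 467, Cd82 at 263, 169, 678 and 343, Dtna (dystrobrevin) at 69, 182, 252 and 312 and Fbn1 (fibrillin-1) at 2912, 5547, 10408 and 25014. The levels of Fbn1 moved with the fibroblast sum between the luminal libraries, and the part of stromal RNA in it was not tested.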

How the data were processed

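RNA-seq was analysed in 4 libraries, 2 of basal and 2 of luminal cells. The authors aligned reads to GRCm38 (mm10) with STAR, counted genes with HTSeq and scaled the counts to 1 number of aligned reads. The deposited signal is this scaled count, rounded. The submitters' processing notes also name Picard, with no role. Strand use and duplicate removal are not given in the sources used here. Columns without a sample numbered 0. No 2 libraries were identical. In each library low values (60 reads or fewer) are multiples of what 1 read is worth, which held for 97.9% to 99.0% of them, and division by it gave whole reads. Intervals cover counting error only.

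Symbols and coordinates came from GENCODE on GRCm38, which held 49412 of 49671 identifiers. The filter of the methods (10 in each library of a group, average 20) left 18737 genes. limma 3.58.1 (R 4.3.3) used log2(value + 1), a trended prior and, over all genes kept, Benjamini-Hochberg adjusted p at 0.05. Fold changes are on that log2 scale, on which a library at 0 can enlarge the change of a low gene. edgeR 4.0.16 (quasi-likelihood) and DESeq2 1.42.0 took the whole reads as alternatives. All models were tested on simulated data. Alternatives changed the scaling, pseudocount, filter, fold, prior and length, and left out each library. All 38 genes are named, with those of each related list that passed limma or had the largest folds without overlap. A gene that this rule names is not reported here. The genes, lists and tests were chosen with earlier results of these data known.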

Additional observations from a re-analysis of the deposited data

How the results depend on the processing

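The direction of the 38 genes as a group held under rescaling, while calls by limma depended on the settings. Of the 38 genes, 1 was higher in basal cells by limma as reported, 3 after quantile normalisation, 4 with a pseudocount of 20, 0 without the filter (10 at an unadjusted p under 0.05), 5 when both groups had to pass the filter, 5 at an average of 100 or more, 5 by edgeR, 4 by DESeq2 and 0 to 0 leaving out 1 library (6 to 18 unadjusted). Higher in luminal cells were 1 after quantile normalisation, 1 with both groups passing, 1 by edgeR and 0 to 0 leaving out 1 library. The fold rule gave 5 and 1 at 4-fold, 1 in the luminal direction at an average of 100 or more, and 11 to 26 basal and 1 to 3 luminal leaving out 1 library, with 26 basal and 1 luminal without luminal replicate 2. Over all genes the basal count by limma was 499 after quantile normalisation, 374 with a pseudocount of 20, 0 without the filter (3045 unadjusted), 409 with both groups passing, 316 at an average of 100 or more, 321 without the trended prior, 509 by edgeR, 416 by DESeq2 and 7 to 445 leaving out 1 library. The luminal counts were 369, 260, 0 (1410 unadjusted), 269, 217, 223, 443, 403 and 6 to 220 in the same order. Itga3 lost its call without the filter (limma adjusted p = 0.228, log2 fold change -3.65 as before) and on leaving out any library, where its log2 fold change was -3.84 to -3.47 and the single library left in a group is assumed to vary like the other group. The median of the adapters was -1.01 to -0.31 and that of the integrin subunits -1.53 to -0.57 leaving out 1 library, and that of the ligands -1.75 without luminal replicate 2 and 0.39, reversed, without luminal replicate 3. With the longest annotated transcript as length, 7 group averages of the subunit shares moved by more than their SD. Single genes reversed sign in 24 of 526 recomputed values, in 13 of 38 genes. Under rescaling to nuclear protein-coding genes Itga10 gave 0.27, Itga7 0.044 and Fermt2 0.048, and under quantile normalisation Fermt2 gave 0.10 and Actn4 0.013. Leaving out 1 library, the log2 fold change ran from -1.01 to 0.93 for Itga10, -0.50 to 3.47 for Itga11, -0.90 to 0.37 for Itga7, -0.59 to 1.33 for Itga5, -2.13 to 0.46 for Itga9, -1.97 to 0.84 for Itgb3, -1.22 to 0.38 for Itgb6, -0.92 to 1.63 for Parvb, -0.82 to 0.30 for Fermt2, -0.32 to 0.42 for Vcl, -1.75 to 0.60 for Fn1 and -1.32 to 0.39 for Thbs1. The cause was not tested. No paired analysis was possible because the groups share only 1 replicate number. Luminal depth limits low genes most, where 1 read is worth 19.4 to 31.2 normalised counts.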
